A study of Mus musculus with 15 samples.

Results

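Cytotoxic T lymphocytes and natural killer (NK) cells kill their targets with a small set of effector proteins, and 10 of the genes that encode them were followed here: the granzymes Gzma, Gzmb, Gzmc, Gzmd, Gzme, Gzmf and Gzmk, the pore protein gene Prf1, the granule membrane gene Nkg7 and the death ligand gene Fasl. The genes were picked by name from a table of 32543 genes, with earlier results of these data known. All 10 were among the 15494 genes with enough counts to be tested. RNA came from 15 whole tumors that WEHI-164 cells, a mouse fibrosarcoma line, had formed under the skin of female BALB/c mice of the genotype WT, whose age the labels did not give. On day 0, 3 untreated tumors were taken. The other 12 tumors had been injected with poly(I:C), a synthetic double-stranded RNA, and were taken on days 1, 3, 5 and 7, 3 tumors a day. The labels gave 1 µg in 25 µL a day for a planned course of 6 doses, but a higher daily amount is also written for this experiment in the study's text, and the dose is therefore uncertain. No untreated tumor of a later day was analysed here, so poly(I:C) and the days that passed cannot be told apart.

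Granzymes are serine proteases that wait in the lytic granules of killer cells bound to a proteoglycan. When the killer cell meets its target the granules fuse with the membrane, perforin opens pores in the target, and the granzymes enter and cleave substrates that lead to death. Fas ligand works beside the granules, as a membrane protein that engages the death receptor Fas. In the mouse the granzyme B locus carries a series of close relatives, Gzmc to Gzmg, that human cells lack, and these are known from strongly activated killer cells.

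The granzymes divided into 2 chromosomal groups. Gzma and Gzmk lay on chromosome 13, at chr13:113093825-113100981 and chr13:113171608-113225908, both on the minus strand of GRCm38. Gzme, Gzmd, Gzmg, Gzmn, Gzmf, Gzmc and Gzmb followed each other in that order on the minus strand of chromosome 14, from the start of Gzme to the end of Gzmb at chr14:56117626-56262260. Prf1 lay at chr10:61297833-61304680 and Nkg7 at chr7:43437073-43438249, both on the plus strand, and Fasl lay at chr1:161780689-161788495 on the minus strand. All 10 were annotated as protein coding.

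The coding sequences of the chromosome 14 granzymes were close to each other, which bears on how far their counts can be separated. Over the whole coding sequence Gzmd was 93.3% identical to Gzme, 86.6% to Gzmg, 83.4% to Gzmf, 71.2% to Gzmc and 65.3% to Gzmb, while Gzma and Gzmb shared 54.1%. The opening 100 coding bases, which span exons 1 and 2, are shown from GRCm38 for Gzmd (chr14:56131336-56132522), Gzme (chr14:56119404-56120556), Gzmg (chr14:56158401-56159524), Gzmf (chr14:56207015-56211357), Gzmc (chr14:56233983-56234582) and Gzmb (chr14:56261190-56262149), all on the minus strand, with capitals where a base differs from Gzmd.
Gzmd: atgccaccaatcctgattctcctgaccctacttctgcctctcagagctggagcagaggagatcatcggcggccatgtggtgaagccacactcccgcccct
Gzme: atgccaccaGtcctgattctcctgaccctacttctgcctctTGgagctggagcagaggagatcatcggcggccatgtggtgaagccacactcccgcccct
Gzmg: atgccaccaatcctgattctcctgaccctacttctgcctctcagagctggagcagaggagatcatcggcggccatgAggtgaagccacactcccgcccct
Gzmf: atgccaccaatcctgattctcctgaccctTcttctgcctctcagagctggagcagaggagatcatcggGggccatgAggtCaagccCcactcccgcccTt
Gzmc: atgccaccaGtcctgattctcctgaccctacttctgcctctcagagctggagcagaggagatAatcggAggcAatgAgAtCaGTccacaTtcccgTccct
Gzmb: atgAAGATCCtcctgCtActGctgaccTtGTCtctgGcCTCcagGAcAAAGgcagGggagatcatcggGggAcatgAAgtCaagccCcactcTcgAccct
In this stretch Gzmg differed from Gzmd at 1 base, Gzme at 3, Gzmf at 6, Gzmc at 11 and Gzmb at 33. Of all runs of 31 bases in each transcript, 58.7% for Gzme, 61.8% for Gzmd, 66.2% for Gzmg and 78.3% for Gzmf occurred in no other gene of the family, against 98.6% for Gzmb and 100% for Gzma and Gzmk. Reads that fit several transcripts were divided among them by the counting tool, so the separate values of Gzmd, Gzme, Gzmf and Gzmg are uncertain and their sum is given beside them.

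The stretches before the start sites showed the same kinship, with exceptions for Gzmb and Gzmn. Over 300 bases that hold the RefSeq start site (GRCm38.p6), most of them before it, Gzmd was 93.4% identical to Gzme, 82.7% to Gzmc and 77.3% to Gzmf, but 42.8% to Gzmb, a value like the 47.5% between Gzmd and Gzma. Gzmn, whose coding sequence was 79.9% identical to that of Gzmd, was at 46.6% here. The 200 bases before the start site are shown for some of these genes, and any link to their RNA levels was not tested. They lie on the minus strand, at chr14:56132594-56132793 for Gzmd, chr14:56211408-56211607 for Gzmf, chr14:56234658-56234857 for Gzmc, chr14:56262335-56262534 for Gzmb and chr13:113100982-113101181 for Gzma. Capitals mark the letters TGTGGT (or ACCACA, the same letters on the other strand), known from RUNX binding sites, and TGANTCA, known from AP-1 sites.
Gzmd promoter: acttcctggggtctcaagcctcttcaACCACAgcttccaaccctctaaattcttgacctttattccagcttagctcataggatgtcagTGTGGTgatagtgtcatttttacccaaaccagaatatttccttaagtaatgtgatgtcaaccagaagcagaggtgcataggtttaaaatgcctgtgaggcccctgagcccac
Gzmf promoter: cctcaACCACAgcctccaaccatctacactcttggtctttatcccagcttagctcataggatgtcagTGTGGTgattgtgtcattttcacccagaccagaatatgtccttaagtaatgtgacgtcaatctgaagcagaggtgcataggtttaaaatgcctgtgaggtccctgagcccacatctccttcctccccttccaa
Gzmc promoter: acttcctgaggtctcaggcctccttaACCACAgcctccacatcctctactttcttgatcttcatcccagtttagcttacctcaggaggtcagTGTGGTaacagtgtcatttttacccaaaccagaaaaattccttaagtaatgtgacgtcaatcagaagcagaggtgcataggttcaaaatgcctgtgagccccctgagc
Gzmb promoter: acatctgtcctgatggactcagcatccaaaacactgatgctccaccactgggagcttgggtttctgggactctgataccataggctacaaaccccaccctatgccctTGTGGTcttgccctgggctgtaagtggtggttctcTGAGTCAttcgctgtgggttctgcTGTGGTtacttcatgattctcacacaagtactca
Gzma promoter: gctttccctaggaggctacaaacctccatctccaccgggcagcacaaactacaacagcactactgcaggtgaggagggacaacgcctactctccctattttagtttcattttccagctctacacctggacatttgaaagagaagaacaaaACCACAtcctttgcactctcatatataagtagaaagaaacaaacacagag
TGTGGT stood on either strand in 8 of the 10 promoters and in 16.8% of the 32851 mouse promoters of the same length. Gzmc, Gzmd, Gzme and Gzmf each held it once per strand, between 195 and 108 bases before the start site, and these copies are not independent since the sequences are alike. TGANTCA stood in the Gzmb promoter alone among the 10, against 7.81% of all promoters. GGTGTGA, known from T-box factors, stood in the Gzmk and Nkg7 promoters, against 3.98% of all. TTCNNNGAA, known from STAT factors, stood in the Gzmb and Nkg7 promoters, against 8.3% of all. These letters are a description of sequence, not of binding.

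The level of each gene was followed in CPM, which are counts scaled to a common library total, from libraries of 23713090 to 31913106 counts in all. A count of 3, the limit that a count of 0 allows, was worth between 0.0972 and 0.125 CPM, and this covers counting error only. In bulk tumors fewer cells of a type and less RNA per cell cannot be told apart. Genes were compared across days with edgeR's two-sided quasi-likelihood test, with p-values adjusted over all genes tested by the Benjamini-Hochberg method, and genes with an adjusted p under 0.05 count as called. No gene of the table was called by edgeR in any comparison, so counts at an unadjusted p under 0.05 and the calls of a DESeq2 test are given with each. The tumors of a day are separate tumors, and p-values measure the spread between them.

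A single tumor of day 3, replicate 1, stood apart from the rest, and values without it are given beside the main ones. On average it correlated with the others at 0.884, where every other tumor reached at least 0.956, and it lay at 144.5 on the first principal component, against -77.0 to 45.1. Its 8 skeletal muscle markers summed to 3310 CPM, against 3.47 to 185 CPM in the other 14 tumors, and its adipocyte markers to 274 CPM, against 9.99 to 59.6 CPM. Its 12 T cell markers summed to 346 CPM, against 17.4 to 208 CPM elsewhere, and the 8 NK cell markers to 251 CPM, against 12.2 to 132 CPM. No T cell marker was at 0 in any tumor, and of the NK cell markers only Klra8 was, at 0 to 1 counts.

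The spread over tumors was wide for every member, from 10.4-fold between the lowest and the highest tumor for Gzmc to 74.2-fold for Gzmk. Compared per length of the annotated transcript on day 0, Gzmf came first among the members at 102.8 ± 79.2 CPM per kilobase (SD, n = 3), ahead of Gzmd at 83.4 ± 54.2, Gzmc at 53.1 ± 20.6 and Gzme at 34.9 ± 24.3 CPM per kilobase. Gzma followed at 27.6 ± 7.05, Gzmb at 23.9 ± 4.02, Prf1 at 10.6 ± 4.39 and Nkg7 at 6.32 ± 1.56 CPM per kilobase, with Fasl at 0.834 ± 0.235 and Gzmk at 0.791 ± 0.362 CPM per kilobase last. Neighbors in this order overlapped in their tumors, apart from Gzmb over Prf1 and Nkg7 over Fasl. On day 3 Gzma, at 80.2 ± 29.3 CPM per kilobase, came next after Gzmf and Gzmd, and on day 7 Gzmf and Gzmd still led at 27.5 ± 18.7 and 27.3 ± 15.7 CPM per kilobase.

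Gzma and Gzmb, the granzymes most often found in killer cells, were higher on day 3 than on day 0 in every tumor. Gzmb, which cleaves after aspartate and activates caspases, was at 33.8, 28.9 and 40.4 CPM on day 0, 27.9, 41.6 and 105 on day 1, 72.7, 142 and 79.6 on day 3, 81.8, 72.6 and 22.0 on day 5 and 9.64, 39.5 and 9.20 CPM on day 7. Gzma, a granzyme that cleaves after basic residues, was at 25.8, 17.5 and 29.5 CPM on day 0, 14.04, 17.4 and 55.1 on day 1, 74.9, 93.6 and 42.8 on day 3, 52.1, 28.7 and 12.1 on day 5 and 7.04, 22.4 and 4.10 CPM on day 7. For both genes the day 3 tumors lay above all day 0 tumors and above all day 7 tumors, while days 1 and 5 overlapped with the rest. The log2 fold change from day 0 to day 3 was 1.51 ± 0.65 (SE) for Gzmb, with an unadjusted p of 0.037 and an adjusted p of 0.15 (edgeR), and 1.54 ± 0.68 for Gzma, with an unadjusted p of 0.043 and an adjusted p of 0.16. Without day 3 replicate 1 these differences were 1.69 and 1.496.

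Prf1, which encodes perforin, took the same course with more overlap. It was at 17.6, 22.6 and 38.4 CPM on day 0, 14.2, 25.2 and 51.1 on day 1, 38.3, 74.1 and 44.6 on day 3, 78.3, 42.3 and 9.56 on day 5 and 6.14, 23.6 and 6.23 CPM on day 7. The lowest day 3 tumor and the highest day 0 tumor stood at 38.3 and 38.4 CPM, so these groups overlapped, while every day 7 tumor was below every day 3 tumor, and the log2 difference of 1.00 ± 0.71 had an unadjusted p of 0.18 (edgeR) and was 1.19 without day 3 replicate 1.

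Gzmk, Nkg7 and Fasl had low levels on day 0, and in the fit of all 15 tumors their differences on day 3 were above those of the other members. Gzmk lost that place without day 3 replicate 1, where it was below Gzmb, Gzma and Prf1. Nkg7, a granule membrane protein needed for degranulation, was at 4.11, 5.73 and 6.85 CPM on day 0, 3.54, 5.23 and 18.2 on day 1, 49.5, 25.3 and 17.3 on day 3, 26.4, 19.4 and 5.93 on day 5 and 3.34, 12.2 and 1.80 CPM on day 7. Fasl was at 1.48, 2.12 and 1.24 CPM on day 0, 1.44, 1.76 and 5.15 on day 1, 10.5, 5.85 and 5.21 on day 3, 8.71, 4.70 and 1.47 on day 5 and 1.14, 3.42 and 0.502 CPM on day 7. Gzmk, a granzyme known from memory T cells, was at 0.641, 0.559 and 1.24 CPM on day 0, 0.234, 0.199 and 2.14 on day 1, 6.04, 2.13 and 1.36 on day 3, 2.64, 1.96 and 0.431 on day 5 and 0.0814, 0.761 and 0.125 CPM on day 7.

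All 3 genes were above every day 0 tumor in every day 3 tumor, and day 3 replicate 1 held the highest value of the series for each. Nkg7 was higher by 2.46 ± 0.80 on the log2 scale, 5.52-fold, with an adjusted p of 0.12 by edgeR and 0.019 by DESeq2. Fasl was higher by 2.15 ± 0.75, 4.43-fold, with an adjusted p of 0.12 by edgeR and 0.033 by DESeq2. Gzmk was higher by 1.96 ± 1.01, 3.90-fold, with an adjusted p of 0.20 by edgeR and 0.14 by DESeq2, from counts of 15 to 31 on day 0 and 35 to 150 on day 3. Without day 3 replicate 1 the 3 log2 differences were 1.94, 1.78 and 1.11, and DESeq2 called none of them.

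**Figure D1:**
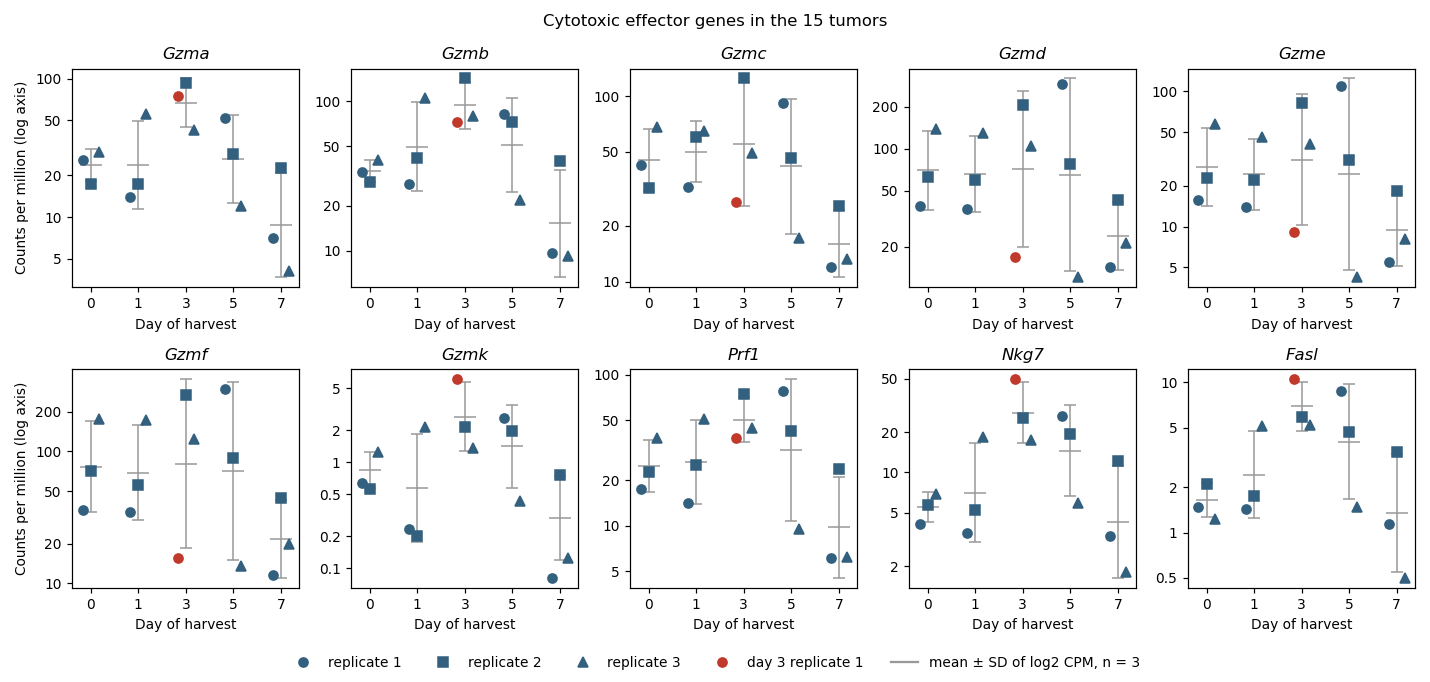
Each panel plots a member's CPM on a log axis against the day of harvest, with a symbol for each of the 3 tumors and grey bars for the mean ± SD of log2 CPM. Day 3 replicate 1, in red, is the highest tumor for Gzmk, Nkg7 and Fasl but lies low for Gzmc, Gzmd, Gzme and Gzmf, at 17.0 CPM for Gzmd against 205 and 105 CPM in the other day 3 tumors.

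The chromosome 14 relatives of Gzmb, Gzmc to Gzmf, behaved differently in this tumor. Gzmd was at 38.9, 63.3 and 139 CPM on day 0, 37.1, 59.6 and 129.6 on day 1, 17.0, 205 and 105 on day 3, 288, 77.7 and 12.2 on day 5 and 14.4, 43.4 and 21.2 CPM on day 7. Gzmf was at 35.9, 71.5 and 176 CPM on day 0, 34.6, 55.2 and 172 on day 1, 15.7, 271 and 125 on day 3, 298, 89.9 and 13.5 on day 5 and 11.5, 44.5 and 19.9 CPM on day 7. Day 3 replicate 1 ranked 13th of 15 tumors for both genes, and the day 3 group ran from below all day 0 tumors to above them.

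Gzme and Gzmc repeated the pattern at other levels. Gzme was at 15.6, 22.9 and 57.3 CPM on day 0, 14.002, 22.1 and 46.4 on day 1, 9.10, 81.6 and 40.7 on day 3, 109, 30.9 and 4.24 on day 5 and 5.45, 18.4 and 8.11 CPM on day 7. Gzmc was at 42.7, 31.9 and 67.8 CPM on day 0, 32.6, 60.03 and 64.6 on day 1, 26.9, 124 and 49.6 on day 3, 91.2, 46.4 and 17.2 on day 5 and 12.0, 25.7 and 13.3 CPM on day 7. Day 3 replicate 1 ranked 12th for Gzme and 11th for Gzmc, and only Gzmc had a day without overlap, with its day 7 tumors below those of days 0, 1 and 3.

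From day 0 to day 3 the log2 differences were 0.50 ± 0.61 for Gzmc, 0.44 ± 0.98 for Gzmd, 0.46 ± 0.97 for Gzme and 0.54 ± 1.08 for Gzmf, each smaller than its standard error. Their sign changed with a single tumor left out. Without day 3 replicate 1 they were 0.88, 0.95, 0.94 and 1.08, and without day 3 replicate 2 they were -0.31, -0.39, -0.36 and -0.42. The summed counts of Gzmc to Gzmg and Gzmn, which do not depend on how reads were divided within the family, gave the same picture, with 185, 273 and 645 CPM on day 0, 166, 272 and 578 on day 1, 85.9, 944 and 452 on day 3, 1115, 341 and 60.2 on day 5 and 57.0, 184 and 86.4 CPM on day 7. The sum was 0.43 ± 0.95 higher on day 3 on the log2 scale, with an unadjusted p of 0.66 (edgeR). Leaving out day 3 replicate 1 gave a difference of 0.93, leaving out day 3 replicate 2 one of -0.45, and leaving out day 0 replicate 3 one of 1.11.

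Counted over the members, all 10 had a log2 difference above 0 on day 3 against day 0, with a median of 1.26, where 48% of all genes tested were above 0 with a median of -0.02. Gzmc, Gzmd, Gzme and Gzmf, 4 of the 10, are not independent of each other and were below 0 without day 3 replicate 2. EdgeR called 0 of the 10. At an unadjusted p under 0.05 there were 4, Gzma, Gzmb, Nkg7 and Fasl, all higher, where 18.3% of all genes were higher at that p. For 5 members, those 4 and Gzmk, the day 3 tumors did not overlap with the day 0 tumors, where 19.4% of all genes were higher without overlap. DESeq2 called Nkg7 and Fasl higher, 2 of 10, where it called 9.43% of all genes higher. Without day 3 replicate 1, 3 members had an unadjusted p under 0.05, Gzmb, Nkg7 and Fasl, where 6.52% of all genes were higher at that p, and DESeq2 called 0 members and 0.28% of all genes higher. The calls also moved with other tumors. Leaving out any single day 0 tumor gave 0 members called by DESeq2, with 13 to 441 of all genes called. In the fit without day 0 replicate 3, 3 members had no adjusted p and could not be called. Leaving out day 1 replicate 3 or day 7 replicate 2 gave 4 members, with 2677 and 2070 of all genes, and leaving out day 3 replicate 3 or day 5 replicate 3 gave 3 members, with 4225 and 2257 of all genes. The edgeR count at an unadjusted p under 0.05 was 2 without any single day 0 tumor, where 16.9 to 21.7% of all genes passed, and 2 without day 3 replicate 2, where 37.9% did.

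From day 3 to day 7 all 10 members were lower, with a median log2 difference of -2.23, where 51.6% of all genes were above 0 with a median of 0.02, and these comparisons share the day 3 tumors with those above. The log2 difference was -2.65 ± 0.71 for Gzma, -2.33 ± 0.67 for Gzmb, -2.12 ± 0.74 for Prf1 and -1.98 ± 0.64 for Gzmc. It was -3.26 ± 1.09 for Gzmk, whose day 7 counts were 2, 20 and 3, -2.40 ± 0.79 for Nkg7 and -2.08 ± 0.75 for Fasl. In these 7 genes every day 7 tumor lay below every day 3 tumor, where 18.4% of all genes were lower without overlap. Gzmd, Gzme and Gzmf had differences of -2.05 ± 1.03, -2.04 ± 1.01 and -2.44 ± 1.14, and day 3 replicate 1 was the day 3 tumor that lay within the day 7 range. Without that tumor the difference was -2.40 for Gzmk, -1.87 for Nkg7 and -1.70 for Fasl, and -2.30 to -2.96 for the other 7 members. The summed family count was -2.18 ± 1.00, with an unadjusted p of 0.048 and an adjusted p of 0.14 (edgeR).

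EdgeR called 0 members on day 7 against day 3, with adjusted p-values of 0.083 to 0.16. At an unadjusted p under 0.05 there were 7, all but Gzmd, Gzme and Gzmf, where 22.6% of all genes were lower at that p. DESeq2 called 7 lower, where it called 15.4% of all genes lower, and by that test Gzma, Gzmb, Gzmc, Gzmk, Prf1, Nkg7 and Fasl fell. Without day 3 replicate 1, 9 members, all but Fasl, had an unadjusted p under 0.05, where 8.48% of all genes were lower at that p. In that setting DESeq2 gave an adjusted p for 4 members and 5837 genes only. It called 1 member, Gzmc, and 0.908% of those 5837 genes lower. The DESeq2 count was 0 when day 7 replicate 1 was left out, with 12 of all genes called. Without day 7 replicate 3 it called 19 of all genes, but all 10 members lacked an adjusted p, so none could be called. EdgeR called 2 members, Gzma and Gzmb, at an adjusted p of 0.049 for each, without day 3 replicate 3, where it called 2104 of all genes.

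Markers of other cell types also differed in this comparison. The 7 macrophage markers had a median log2 difference of -1.31, with 6 called lower by DESeq2, and -0.80 with 0 called without day 3 replicate 1. They summed to 2479 to 6431 CPM on day 3 and 1034 to 2225 CPM on day 7. The 5 erythroid genes went the other way, with a median of 2.97 and all 5 called higher by DESeq2, where it called 924 of all genes higher. Without that tumor the median was 3.65 and 5 were higher at an unadjusted p under 0.05 (edgeR), where 1118 of all genes were. DESeq2 called 0 of them there, but it gave Hbb-bs, Hba-a1 and Hbb-bt no adjusted p. The erythroid genes summed to 10.2 to 28.7 CPM on day 3 and 29.0 to 221 CPM on day 7. No gene of either list was at 0 in any tumor, and their part in the members' differences was not tested.

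**Figure D2:**
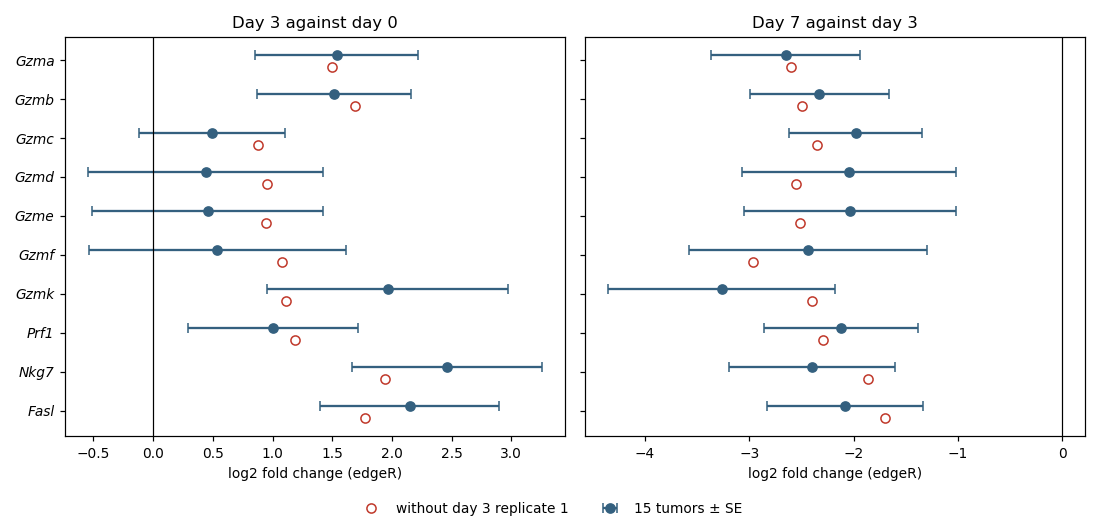
Filled points give each member's log2 fold change with its SE from the edgeR fit of 15 tumors, on day 3 against day 0 at the left and day 7 against day 3 at the right, and open points give the fit without day 3 replicate 1, drawn without an error. On day 3 the values run from 0.44 for Gzmd to 2.46 for Nkg7, and on day 7 against day 3 from -3.26 for Gzmk to -1.98 for Gzmc.

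The other days were compared with day 0 in the same fit. On day 1, 7 of the 10 members were above 0, against 49.9% of all genes, with a median log2 difference of 0.17. EdgeR and DESeq2 called 0, where DESeq2 called 0.259% of all genes, and 0 members had an unadjusted p under 0.05, where 3.16% of all genes did. Day 1 replicate 3 was the exception of its day, with Nkg7 at 18.2 CPM against 3.54 and 5.23 in the other day 1 tumors. Its T cell markers summed to 96.0 CPM, against 33.1 and 33.6 CPM. On day 5 all 10 members were above 0, against 50.3% of all genes, with a median of 0.69. EdgeR and DESeq2 called 0, where DESeq2 called 0.0742% of all genes, and only Fasl had an unadjusted p under 0.05, at 0.049 with a difference of 1.61 ± 0.74, where 1.41% of all genes were higher at that p. That count was 0 when any of these was left out: a day 0 tumor, day 1 replicate 2, day 3 replicate 2 or 3, day 5 replicate 1 or 2, or day 7 replicate 1, where 1.81 to 5.07% of all genes passed in either direction. It was 2 when day 1 replicate 3, day 5 replicate 3 or either of the day 7 replicates 2 and 3 was left out, where 4.56 to 10% passed. The day 5 tumors were far apart, with Gzmd at 288 CPM in replicate 1 and 12.2 CPM in replicate 3, and their T cell markers at 208 and 33.6 CPM.

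On day 7 against day 0, 8 of the 10 members were lower and 2 above 0, against 44.4% of all genes, with a median log2 difference of -1.21. EdgeR and DESeq2 called 0, where DESeq2 called 0.0324% of all genes. Only Gzmc had an unadjusted p under 0.05, at 0.035 with a difference of -1.48 ± 0.63, where 1.02% of all genes were lower at that p. Its day 7 tumors lay below all day 0 tumors, where 6.26% of all genes did so. Gzmc to Gzmf and Prf1 had a wider difference from day 0 on day 7 than on day 3, at -1.12 ± 0.72 for Prf1 and -1.48 to -1.90 for the others. Nkg7 and Fasl differed from day 0 by less than their error, at 0.06 ± 0.77 and 0.07 ± 0.74. The count at an unadjusted p under 0.05 was 5 without day 7 replicate 2, which had the highest level of all 10 members on its day, where 3.52% of all genes passed. It was 0 when any of day 7 replicate 1, day 7 replicate 3 and day 0 replicate 3 was left out, where 1.2 to 1.69% passed.

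On day 3 against day 1 all 10 were above 0, against 46.7% of all genes, with a median log2 difference of 0.77. EdgeR and DESeq2 called 0, where DESeq2 called 0.182% of all genes. Nkg7 alone had an unadjusted p under 0.05, at 0.040 with a difference of 1.77 ± 0.77, where 12.8% of all genes were higher at that p. Fasl alone had day 3 tumors above all day 1 tumors, where 7.53% of all genes did. The count at that p was 0 without day 3 replicate 1, where 1.3% of all genes were higher. It was also 0 when day 0 replicate 2, day 1 replicate 1, day 1 replicate 2 or day 3 replicate 2 was left out, where 6.67 to 29.4% of all genes passed in either direction. It was 2 without day 7 replicate 2, where 18.2% passed, and 5 without day 1 replicate 3, where 27.8% passed and DESeq2 called 4 members and 2000 of all genes. A joint test of the 4 treated days against day 0 called 0 members by edgeR, with 4 at an unadjusted p under 0.05, Gzma, Gzmb, Nkg7 and Fasl, against 16.2% of all genes. DESeq2 called Gzma and Nkg7 in the joint test, at adjusted p-values of 0.038 and 0.030, where it called 7.63% of all genes. Without day 3 replicate 1 it called 0 members, with no adjusted p for Gzmk, and 1.39% of the 12985 genes with an adjusted p. The edgeR count in the joint test was 1 when day 3 replicate 2 or day 7 replicate 1 was left out, where 19.7 and 10.4% of all genes passed. It was 2 without day 3 replicate 1, where 7.22% of all genes passed, 2 when any day 0 tumor, day 3 replicate 3 or day 7 replicate 3 was left out, where 10.5 to 21.7% passed, and 7 without day 5 replicate 3, where 19.1% passed.

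T and NK cell markers moved with the members. The mean log2 CPM of 19 markers of T and NK cells was 1.47 to 1.996 on day 0, 1.25 to 2.93 on day 1, 3.28 to 4.78 on day 3, 1.59 to 3.99 on day 5 and 0.30 to 2.59 on day 7. Nkg7 followed this level closely, with 0.55 to 1.32 more log2 CPM than the marker mean in all 15 tumors. Fasl lay between -1.6004 and -0.55 relative to the marker mean, a range of 1.05. Killer cells express both the members and these markers, and the part of cell number in the members' levels was not tested.

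Against the same marker mean the granzymes were uneven in day 3 replicate 1. Gzmb stood 2.36 to 3.96 above the marker mean in 14 tumors and 1.402 above it there. Prf1 stood 1.68 to 3.27 above it in 14 tumors and 0.48 there. Gzmd stood 2.03 to 5.12 above it in 14 tumors and was at -0.69 there, and Gzmf stood 2.18 to 5.46 above it and was at -0.81 there. Gzma, at 1.44, was also at its lowest in that tumor but close to the range of 1.71 to 3.22 in the others. Gzmk, Nkg7 and Fasl were within the range of the other tumors.

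**Figure D3:**
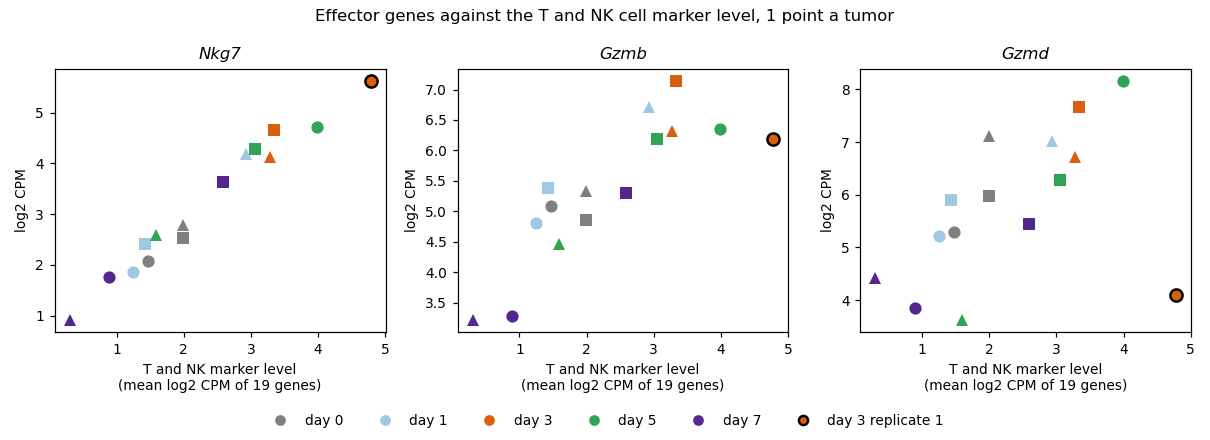
Each point is a tumor, with the mean log2 CPM of 19 T and NK cell markers on the x axis, a member's log2 CPM on the y axis and the day as color. Nkg7 runs along a line through all 15 tumors, Gzmb levels off at day 3 replicate 1, ringed in black, and Gzmd drops there to 4.09 log2 CPM, far below the other tumors of high marker level.

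**Figure D4:**
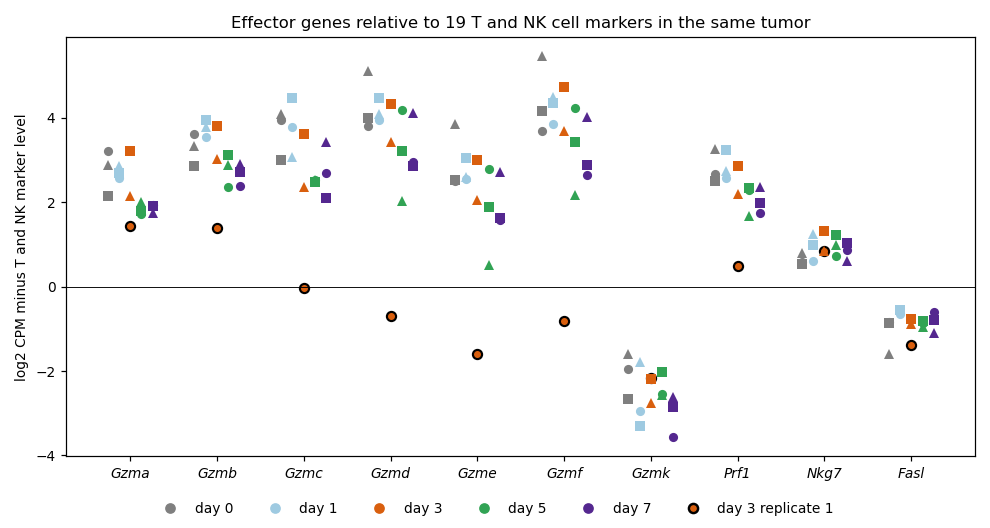
Points give log2 CPM of each member minus the T and NK cell marker mean of the same tumor, colored by day. For Gzmc, Gzmd, Gzme and Gzmf the ringed point of day 3 replicate 1 lies apart at -0.03, -0.69, -1.58 and -0.81, while Nkg7 spans only 0.55 to 1.32 over all tumors.

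Ratios within a tumor, which do not depend on library scaling, showed the same tumor apart. The ratio of Gzmd to Gzma counts was 0.23 in day 3 replicate 1 and 1.01 to 5.53 in the other 14 tumors. The ratio of Gzmc to Gzma counts was 0.36 there and 1.14 to 3.45 elsewhere, and that of Gzmb to Gzma 0.97 there and 1.31 to 2.52 elsewhere. Within the family the ratio stayed narrow, with Gzmd at 1.86 to 2.87 times the Gzme count in all 15 tumors, a pair whose reads are the hardest to separate.

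Over the 15 tumors the members formed 2 correlated groups with Gzma, Gzmb and Prf1 between them. These correlations of log2 CPM describe tumors that share days and depth, and the groups were named after the values were seen. Pearson's r was 0.99 among Gzmd, Gzme and Gzmf, whose reads are in part shared, and at least 0.91 when Gzmc was added. It was 0.88 to 0.97 among Gzmk, Nkg7 and Fasl and 0.93 to 0.96 among Gzma, Gzmb and Prf1. Between Gzmc to Gzmf and the trio of Gzmk, Nkg7 and Fasl it was 0.47 to 0.60, and without day 3 replicate 1 it was 0.71 to 0.87. Spearman's rho between these groups was 0.50 to 0.64, and r was 0.44 to 0.53 after each day's mean was taken out. Both ranges include day 3 replicate 1, and without it the latter was 0.68 to 0.86.

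**Figure D5:**
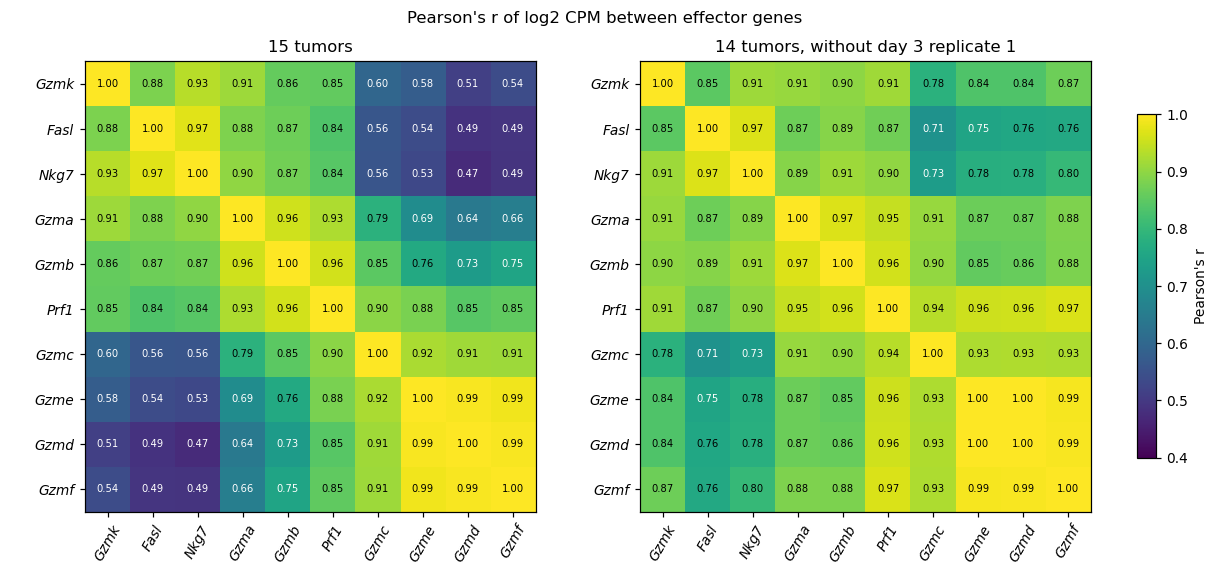
Cells give Pearson's r of log2 CPM between each pair of members, over 15 tumors at the left and over 14 tumors without day 3 replicate 1 at the right. The dark block between Gzmk, Fasl and Nkg7 and the Gzmc to Gzmf genes holds r of 0.47 to 0.60 at the left and 0.71 to 0.87 at the right.

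Correlation with marker levels set the same genes apart. Nkg7 followed the NK cell marker level at r = 0.99 and the T cell marker level at r = 0.98, and without day 3 replicate 1 both values were 0.97 or higher. Gzmb followed the T cell level at r = 0.84, and at 0.90 without that tumor. Gzmd followed it at r = 0.47, and at 0.84 without that tumor. Mast cell proteases lie beside the granzyme cluster and their list was followed too. Its summed level was 409 to 616 CPM on day 0, 589 to 1322 CPM on day 3 and 117 to 424 CPM on day 7. It was highest in day 3 replicate 1, where Gzmd was low and the T and NK cell markers were also at their highest. Gzmd followed the mean log2 CPM of this list at r = 0.57, and at 0.81 without that tumor. For Gzma these values were 0.91 and 0.90. Cma1, a mast cell chymase, was at 169 CPM in that tumor and at 10.8 to 102 CPM in the others. The part of mast cells in the granzyme values was not tested.

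The genes whose pattern was most like a member's, among all genes tested, were found by Pearson's r of log2 CPM over 15 tumors. For Gzmb these were Ifng, which encodes interferon gamma, at 0.97, then C5ar1 at 0.97, Il15ra at 0.96, Zbtb32 at 0.96 and Gm4841 at 0.96. Prf1 was also nearest to Ifng at 0.96, then Rgs8 at 0.96, C5ar1 at 0.95, Parp3 at 0.95 and Tmsb15a at 0.95. Gzmk was nearest to Tbx21, the gene of the transcription factor T-bet, at 0.98, then Tiam1 at 0.96, the chemokine receptor gene Cxcr6 at 0.96, Ccdc71l at 0.96 and ENTHD2 at 0.96. For Gzmf the nearest were Gzmg at 0.99, Fcrl6 at 0.98 and Dsc2 at 0.95. No gene outside its own family was as close to Gzmf as Gzmd and Gzme were. Reads that fit several of these genes were divided among them, and the part of this in their closeness was not tested.

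The remaining granzymes were split. Gzmg, at 17.3 CPM in day 3 replicate 1 and 263 and 131 CPM in the other day 3 tumors, followed Gzmf. Gzmn was at 0 to 6 counts and was not tested. Gzmm, a granzyme of NK cells, did not follow the others, with a log2 difference of 0.04 ± 0.39 on day 3 against day 0 and -0.17 ± 0.39 on day 7 against day 3. Its level was low, with daily means of 0.614 to 0.748 CPM, which limits what these differences show.

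The gene lists that follow are read against the same shares of all genes as the members, 18.3% higher at an unadjusted p under 0.05 and 9.43% called higher by DESeq2 on day 3 against day 0, and 15.4% called lower by DESeq2 on day 7 against day 3. Genes that load and process granule contents were higher on day 3 in all 8 of the 8 cases measured, with a median log2 difference of 1.01. EdgeR called 0 of them, 6 had an unadjusted p under 0.05, and DESeq2 called 4 higher, Ctsc, Ctsh, Ctsw and M6pr. The median was 0.83 in the fit without day 3 replicate 1, where 3 had that p and DESeq2 called 0. Ctsc, the cathepsin that activates granzymes by trimming their ends, was higher by 1.19 ± 0.43, and the lysosomal membrane genes Lamp1 and Lamp2 by 0.48 ± 0.19 and 0.25 ± 0.14, or 0.22 and 0.12 without that tumor. On day 7 against day 3 all 8 were lower, with a median of -1.15, 8 had an unadjusted p under 0.05 and DESeq2 called 6 lower, but without day 3 replicate 1 these counts were 4 and 0. On day 0 Ctsc, Lamp1 and Lamp2 had means of 512, 629 and 294 CPM, against 34.3 CPM for Gzmb. Which cells held the RNA of these genes was not tested.

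Of 9 genes for granule transport and fusion that were measured, 7 were higher on day 3, with a median of 0.96. EdgeR called 0, 5 had an unadjusted p under 0.05, and DESeq2 called 5 higher, Rab27a, Unc13d, Stxbp2, Vamp8 and Coro1a. In the fit without day 3 replicate 1 the median was 0.59, 3 had that p and DESeq2 called 0. Coro1a, an actin regulator of blood cells, was higher by 1.24 ± 0.40, and by 0.73 without that tumor, while Ap3b1 and Snap23, which most cells use, had differences of -0.05 ± 0.08 and 0.27 ± 0.16, or -0.07 and 0.00375 without it. Rab27a was at 24.2 CPM in day 3 replicate 1 and 13.8 and 11.7 CPM in the other day 3 tumors, against 7.92 to 8.97 CPM on day 0. Rab27a and the other DESeq2 calls outside the most abundant genes of a list are named here after their values were seen.

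A list of protease inhibitor genes was followed for inhibitors of granzymes, which protect cells from their own or a neighbor's enzymes. These genes were higher on day 3 in 4 of 4 cases, with a median of 1.13. EdgeR called 0, 3 had an unadjusted p under 0.05, and DESeq2 called Serpinb6b and Serpina3g higher. The median was 1.18 in the fit without day 3 replicate 1, where 2 had that p and DESeq2 called 0. Serpina3g, whose action on granzymes is uncertain, was higher by 1.502 ± 0.58. Serpinb9, the inhibitor of granzyme B, was higher by 0.84 ± 0.31 and Serpinb6b by 1.19 ± 0.33. On day 7 against day 3 the 3 genes were lower by DESeq2, at -1.54 ± 0.58, -1.13 ± 0.31 and -1.34 ± 0.33. Without day 3 replicate 1 DESeq2 called 0 of the list, but it gave Serpinb6b no adjusted p there.

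The receiving side of the death pathways showed little difference on day 3. Of 9 genes for death receptors, ligands and their caspases, 5 were above 0, with a median of 0.01. EdgeR called 0, and 1, the death ligand gene Tnfsf10, had an unadjusted p under 0.05 and was called higher by DESeq2, at 1.51 ± 0.47. Without day 3 replicate 1, 7 were above 0, the median was 0.10, and Tnfsf10 was at 1.10, still the 1 gene with that p, with 0 called by DESeq2. Cflar, which restrains caspase 8, was at -0.07 ± 0.09 and Bid, a granzyme B and caspase 8 substrate, at -0.14 ± 0.24, with a sign that turned without that tumor, to 0.17.

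Transcription factors of the cytotoxic program differed among themselves. Of 7 measured, 6 were above 0 on day 3, with a median of 0.29. EdgeR called 0, while 3 were higher at an unadjusted p under 0.05, Tbx21, Eomes and Id2, at 2.22 ± 0.94, 1.65 ± 0.69 and 0.91 ± 0.37, and 1 was lower, Bhlhe40, at -0.72 ± 0.20, which DESeq2 also called lower. With day 3 replicate 1 left out, 4 were above 0 with a median of 0.22, Bhlhe40 was at -0.58 and still had that p, 0 were higher at that p and DESeq2 called 0. Zeb2 was at 0.25 ± 0.16, and at -0.02 without that tumor.

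Cytokines that raise granzyme levels, and their receptors, were above 0 on day 3 in 11 of 11 tested, with a median of 1.51. EdgeR called 0, 7 had an unadjusted p under 0.05, and DESeq2 called 6 higher. In the fit without day 3 replicate 1 the median was 1.09, 3 had that p and DESeq2 called 0. Il2rg and Il2rb, the shared receptor chains for interleukins 2 and 15, were higher by 1.51 ± 0.51 and 2.08 ± 0.69, and Il15ra by 0.71 ± 0.34. The transcripts of Il2, Il12a and Il21 were too low to test, at no more than 19 counts in any tumor.

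For scale, all 12 T cell markers and all 7 NK cell markers tested were above 0 on day 3, with medians of 2.03 and 2.36, and both medians were above that of the members. EdgeR called 0 of either list, 11 and 7 had an unadjusted p under 0.05, and DESeq2 called 10 and 6. Leaving out day 3 replicate 1 gave medians of 1.401 and 1.75, with 3 and 5 at that p and 0 called by DESeq2 in either list, where the member median was 1.15. The rise on day 3 was not limited to these lists. Medians were 1.48 for macrophage, 1.38 for B cell, 1.25 for neutrophil and 1.11 for mast cell markers. For plasmacytoid dendritic cell, skeletal muscle, adipocyte and erythroid markers they were 1.81, 3.02, 2.01 and 0.12. Without that tumor these 8 medians were 0.997, 1.11, 0.64, 0.67, 0.38, -0.25, 0.24 and -0.69. DESeq2 called 6 of the 7 macrophage markers higher, and 0 without that tumor. On day 7 against day 0 the T cell marker median was -0.41 and the NK cell marker median 0.02, while Gzmc to Gzmf had differences of -1.48 to -1.90. Whether the members differed from the markers was not tested.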

How the data were processed

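RNA-seq of 15 WEHI-164 tumors was analysed, in 5 groups of 3 by day of harvest. Per the study's methods, the authors ran FastQC and kallisto on the reads and used tximport to get values per gene, on mm10. They deposited estimated counts as whole numbers, not normalized. The transcript set and the strandedness are not given in the sources used here, so an overlapping or antisense gene cannot be told apart from its partner. Each tumor had 23713090 to 31913106 counts. Of 32544 entries, 1 was a date in place of a gene name and was left out (0.0202 to 0.0268% of counts), 31401 matched a gene table by symbol and 9156 had no count. No column was left unused. Counts of tumors of the same day differed by a chi-square per degree of freedom of 9.32 to 269, so none was counted as a repeat of another.

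The 15494 genes whose CPM passed 0.366 in 3 or more tumors were fitted with edgeR 4.0.16 in R 4.3.3 (TMM normalization, quasi-likelihood, a term for each day, all 15 tumors in 1 fit), and p-values were adjusted by the Benjamini-Hochberg method. DESeq2 1.42.0 was the alternative test, and adjusted p-values it gave as missing stayed missing. The percentages of genes it called were taken over the genes with an adjusted p. Log2 CPM used a prior count of 2. Other alternatives were DESeq2 size factors in the edgeR fit, no filter, robust and legacy settings, a replicate block and each tumor left out in turn. The same script was also run on simulated data, with an outcome that is not reported here. Replicate numbers were not taken to pair tumors, since the labels do not say what they share. Of 30 correlations of same-numbered deviations, 9 exceeded 0.1 (-0.619 to 0.511). Among replicate 3 of days 3, 5 and 7 they were 0.48 to 0.51. Tumors of unlike numbers were not compared in this way, so these values cannot show whether a number marks a shared batch. Coordinates came from GENCODE annotation of GRCm38 and promoters from RefSeq on GRCm38.p6, read with biopython 1.88, and no protein sequence was used. The members, marker lists and pathway lists were chosen with earlier results of these data known. Beside the members, the text names the 3 genes with the highest mean count of each list, the 5 genes nearest to Gzmb, Prf1, Gzmk and Gzmf, and genes of short lists of calls, which were chosen after their values were seen. Some genes that these rules pick are not reported here.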

Additional observations from a re-analysis of the deposited data

How the results depend on the processing

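With DESeq2 as the test, 2 members were called on day 3 against day 0, 7 on day 7 against day 3 and 2 in the joint test, where edgeR called 0 in each. On day 7 against day 3, leaving out a tumor gave 0 to 2 members called by edgeR and 0 to 9 called by DESeq2. On day 3 against day 0 the log2 difference ran from -0.31 to 0.88 for Gzmc, -0.39 to 1.09 for Gzmd, -0.36 to 1.18 for Gzme, -0.42 to 1.35 for Gzmf and -0.45 to 1.11 for their summed count with Gzmg and Gzmn, and the negative values came without day 3 replicate 2. Of the single-gene differences, 111 kept direction and side of the threshold under the other settings and 9 gained a call, all with DESeq2. With a tumor left out, 294 kept both, 2 gained a call and 4 reversed. A replicate block changed no edgeR call of a member, which stayed at 0, but its counts at an unadjusted p under 0.05 were 2 on day 3 against day 0, 0 on day 5 against day 0, 0 on day 3 against day 1 and 1 in the joint test, against 4, 1, 1 and 4 without it, and the summed difference on day 3 was 0.29 with the block and 0.43 without. Counts of Gzmk on day 7, 2 to 20, limit the precision of its level, and reads shared among Gzmd, Gzme, Gzmf and Gzmg limit their separation.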
